A study of Homo sapiens with 8 samples.

Results

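The regions described here were bound, by called peaks, by both the progesterone receptor (PR) and the glucocorticoid receptor (GR) in T47D A1-2 cells, and had no PR peak in T47D MTVL WT cells. They were selected on the called peaks of 3 lists, by merging overlapping peaks of PR in A1-2 cells after R5020, GR in A1-2 cells after Dex and PR in MTVL cells after R5020, after peaks at A1-2 input peaks had been dropped. Of 51444 merged regions 1880 had both A1-2 receptors and no MTVL PR peak, and 1705 of these remained once chromosome 16 from 34 to 36 Mb, a block of densely packed A1-2 peaks, was left out. These 1705 regions, called A1-2 dual sites below, are compared mainly with the 11525 regions outside that block that were in all 3 lists, called shared sites. Together the 2 sets hold the 13230 regions with both A1-2 receptors, of which the dual sites are 12.9%, a share that the selection itself fixes.

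Both lines derive from T47D, a long-used line of human breast cancer cells. A1-2 has both receptors and is known for a stably introduced GR gene. MTVL WT, named for an integrated MMTV-luciferase reporter, was the study's control line. The 2 are separately derived lines, so whether a difference between them goes with GR or with another property of the lines cannot be told apart. Both were kept in hormone-stripped serum and then starved of serum. Treated cells received 10 nM dexamethasone (Dex), a synthetic glucocorticoid, or 10 nM R5020, a synthetic progestin, for 60 min. The selection used A1-2 cells with R5020 (PR antibody), A1-2 cells with Dex (a mix of GR antibodies), MTVL cells with R5020 (PR antibody) and A1-2 input DNA. The 4 lists it did not use were GR in A1-2 cells with R5020, GR and PR in untreated A1-2 cells, and PR in untreated MTVL cells.

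GR and PR are steroid receptors of one family. Without ligand GR rests mostly in the cytoplasm with chaperones, and on ligand binding it moves to the nucleus. Both receptors bind as dimers to the same palindromic hormone response element, so one DNA site can serve either. Which of the many elements in a genome are used in a given cell is known to depend on whether the chromatin there is open, on partner factors and on the amount of receptor.

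With 1 library per condition, differences between conditions could not be set against replicates, and none was tested. The 95% intervals treat regions as independent counts. They cover counting error only and are too narrow where regions stand close together. The lists used held 28262 PR and 18415 GR peaks in A1-2 cells and 43070 PR peaks in MTVL cells. The read depth behind them was unknown, and a region without an MTVL peak had none past the authors' threshold, a p of 1e-10, which is not a measurement of no binding. Positions are in hg19.

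A1-2 dual sites were weak PR sites and middling GR sites. The score deposited with each peak, taken as -10 times the log10 of its p, was read within each list, and a region with several peaks was given its highest. The PR score of the 1705 dual sites had a median of 167 (95% interval 161 to 173) and quartiles of 126 and 248. In the shared sites the median was 546. The GR score of the dual sites had a median of 183 (176 to 190) and quartiles of 131 and 294, against 249 in the shared sites. As percentiles within their lists, the median dual site stood at 32.5 among A1-2 PR peaks and at 47.2 among GR Dex peaks, and the median shared site stood at 74.9 and 62.0. The GR percentile exceeded the PR percentile in 67.6% of the dual sites (65.3 to 69.8) and in 34.7% of the shared sites (33.9 to 35.6). These scores decided which peaks were called and so helped to choose the sites, and they are given as a description.

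**Figure D1:**
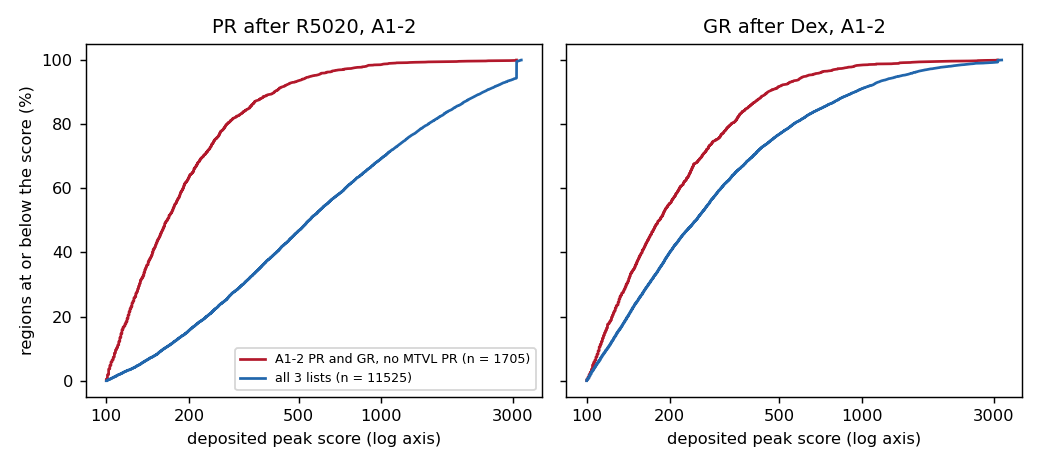
Cumulative share of regions (%, y axis) at or below a deposited peak score (log x axis), for PR after R5020 (left) and GR after Dex (right) in A1-2 cells. Red is the 1705 dual sites and blue the 11525 shared sites. The curves lie farther apart for PR, with medians of 167 and 546, than for GR, with medians of 183 and 249.

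The weaker the PR peak, the larger was the share of A1-2 regions with both receptors that had no MTVL PR peak. It was 29.6% (27.1 to 32.2) at PR scores from 150 to below 200, 17.8% (16.1 to 19.7) from 200 to below 300, 8.19% (7.10 to 9.40) from 300 to below 500 and 0.702% (0.455 to 1.03) from 1000 up. Over the GR score the decline was slower, from 15.5% (14 to 17) between 150 and 200 to 2.57% (1.70 to 3.72) from 1000 up. Within the dual sites the PR and GR scores were loosely related, with a Spearman rho of 0.33 across 1705 regions, compared with 0.57 across the 11525 shared sites. The regions of each set come from the same pair of libraries. Both scores helped to choose the sites, so the 2 values are a description. The PR scores of the dual sites also spanned a narrower range, with quartiles of 126 and 248 against 270 and 1221 in the shared sites. How far that range sets the lower rho was not tested.

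The selection required the PR and GR peaks of a dual site to be joined by overlap, so their closeness is a description. The median distance between their midpoints was 43 bp (40.5 to 45), with quartiles of 18.5 and 84 bp, and it was 38 bp in the shared sites. In 166 dual sites (9.74%) the midpoints were more than 200 bp apart. Most dual sites, 1657 of 1705, were made of 1 PR and 1 GR peak. The median width of a dual site was 706 bp, against 831 bp for a shared site.

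Few dual sites were strong. A PR or GR score of 1000 or more was reached by 42, and 32 of these were in none of the 4 lists that the selection did not use. The site on chromosome 1 from 177558232 to 177559369 was at the ceiling of the score for both receptors, with a PR score of 3100 and a GR score of 3100. It had no peak in untreated cells or with GR after R5020, and the nearest MTVL PR peak was 347 kb away. On chromosome 11 a site from 70823423 to 70824725 had a PR score of 3100 and a GR score of 2622, and on chromosome X a site from 65057805 to 65059169 had 3100 and 1298. The site on chromosome 4 from 14669321 to 14670157 scored 2397 for PR and 2788 for GR. None of these 3 had a peak in the other A1-2 lists either, and their nearest MTVL PR peaks were 35.4, 1024 and 111 kb away. At these 4 sites both receptors were called only with their hormones. The site on chromosome 1 from 110706938 to 110712783 also reached the ceiling, with a GR score of 3100 and a PR score of 2449, but it was called without hormone too, at 320 for GR and 381 for PR, and at 468 for GR after R5020.

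Other strong dual sites were one-sided. The site on chromosome 18 from 77646959 to 77647652 had a GR score of 2101 and a PR score of 109. On chromosome 16 from 89646975 to 89648270 the GR score was 2451 and the PR score 238, and on chromosome 10 from 12288467 to 12289174 they were 1872 and 173. At all 3 the PR score was under the PR list's median of 244, while GR was in the strongest part of its list. Of the 27 dual sites with a GR score of 1000 or more, 7 had a PR score under 250. Of the 25 with a PR score of 1000 or more, 3 had a GR score under 250.

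The 3 A1-2 lists that the selection did not use held a peak at a small part of the dual sites, which was still larger than in any other class. GR was called after R5020 at 151 of the 1705 dual sites (8.86%, 7.55 to 10.3), against 0.945% of all 51131 merged regions outside the block and 1.71% (1.48 to 1.96) of the shared sites. The difference from the shared sites was 7.15 percentage points (5.86 to 8.61). Without hormone, GR was called at 97 dual sites (5.69%, 4.64 to 6.90), compared with 0.344% of all regions and 0.312% of the shared sites. PR was called without hormone at 110 (6.45%, 5.33 to 7.72), compared with 0.657% of all regions and 0.495% of the shared sites. Either untreated A1-2 list had a peak at 144 dual sites (8.45%, 7.17 to 9.87), against 0.800% of all regions and 0.599% (0.466 to 0.757) of the shared sites, a difference of 7.85 points (6.61 to 9.27). The untreated MTVL list, which had a peak at 0.467% of all regions, had one at 0 of the 1705 dual sites, which allows a share of up to 0.176% taken as 3 counts, or 0.216% as the upper end of the exact 95% interval. That value was nearly fixed by the selection, because all but 2 of the 239 merged regions with an untreated MTVL peak also had an MTVL PR peak after R5020.

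**Figure D2:**
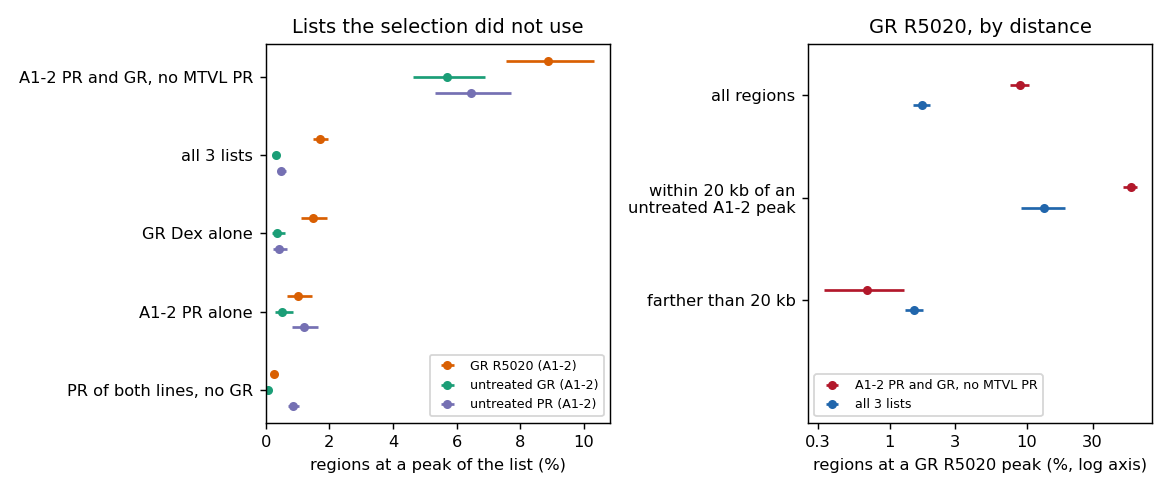
Left: share of regions (%, x axis) that overlapped a peak of A1-2 GR after R5020, untreated GR or untreated PR, in 5 classes of merged regions. Right: share at a GR R5020 peak (%, log x axis) for dual sites (red) and shared sites (blue), over all regions and by distance from an untreated A1-2 peak. Points are shares and bars exact 95% intervals. Dual sites are the highest class for all 3 lists on the left, and on the right their share goes from 56.9% near untreated peaks to 0.686% farther away.

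Of the other classes, regions of A1-2 PR alone had an untreated A1-2 peak at 1.46% (1.06 to 1.98) and those of GR Dex alone at 0.659% (0.423 to 0.979). Both intervals lay below that of the dual sites. These regions too had no MTVL PR peak, but each lacked a peak of 1 A1-2 receptor. A place called in A1-2 cells whatever the antibody or hormone, and not in MTVL cells, becomes a dual site by the rule. The selection thus favours a larger untreated share in dual sites than in the other classes, and how much of the difference it sets was not tested. The difference from the shared sites was also seen at equal PR scores. Equal scores do not remove this limit, because shared sites have an MTVL PR peak at every score. Between 300 and 500, 18.2% of 187 dual sites (12.9 to 24.5) and 0.621% of 2095 shared sites (0.331 to 1.06) had an untreated A1-2 peak, and between 150 and 200, 5.84% of 377 (3.69 to 8.70) and 0.223% of 898 (0.027 to 0.802) did.

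The sites with GR after R5020 were largely those called without hormone. Of the 151 dual sites with a GR R5020 peak, 100 also had an untreated A1-2 peak and 141 (93.4%, 88.2 to 96.8) lay within 20 kb of one. In the shared sites 28 of 197 (14.2%, 9.66 to 19.9) lay that close. Farther than 20 kb from any untreated A1-2 peak, 10 of 1457 dual sites had a GR R5020 peak (0.686%, 0.330 to 1.26), compared with 169 of 11316 shared sites (1.49%, 1.28 to 1.73), so that over all PR scores the difference turned to -0.807 points (-1.20 to -0.198). Within 20 kb, 56.9% of 248 dual sites (50.4 to 63.1) and 13.4% of 209 shared sites (9.09 to 18.8) had one. The distance of 20 kb was chosen after the data had been seen. At such a distance the shared sites with a GR R5020 peak were mostly strong PR sites, since 155 of the 169 had a PR score of 1000 or more, a range that held only 17 of the 1457 dual sites, with 0 at a GR R5020 peak. At PR scores from 500 to below 1000, 0 of 52 dual sites and 11 of 2555 shared sites that far away had one. Below 500 the dual sites were the higher, with 10 of 1388 (0.720%, 0.346 to 1.32) against 3 of 5304 shared sites (0.0566%, 0.0117 to 0.165), and below 300 the numbers were 8 of 1247 and 0 of 3245. The turn over all PR scores thus did not hold for dual sites and shared sites with PR scores below 500.

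These overlaps count regions, and some regions share a peak. The GR R5020 peaks at dual sites numbered 144 and were wide, with a median of 1511 bp and a maximum of 19.1 kb, and 27 of them covered more than 1 dual site. The 202 GR R5020 peaks at shared sites had a median width of 812 bp. When the midpoint of the GR R5020 peak had to lie within 200 bp of the middle of the region, 2.52% of dual sites (1.83 to 3.38) and 1.21% of shared sites (1.01 to 1.42) had one.

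By these lists 1510 dual sites (88.6%, 87 to 90) had a peak in none of the 4 unused lists, 144 had an untreated A1-2 peak and 51 a GR R5020 peak but no untreated one. The 144 hormone-free sites differed in form from the 1510. They were wider, with a median of 1218 bp against 690 bp, and 21.5% of them against 1.06% were joined from several peaks of 1 receptor. The PR and GR midpoints within them lay a median of 91 bp apart, compared with 40.8 bp in the 1510. They scored higher, with medians of 304 for PR and 294 for GR, against 160 and 176. Peaks of the A1-2 input list lay within 10 kb of 3 of the 144 and 19 of the 1510. The 51 sites were in between, with a median width of 909 bp and median scores of 190 and 187.

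At the 5 dual sites of highest untreated score, both receptors were called without hormone. Whether these calls reflect binding of the receptors was not tested. No genes were placed, so whether any of these sites lies in the GR gene was not determined. The site on chromosome 5 from 139929669 to 139931052 had untreated scores of 2866 for PR and 2354 for GR, a PR score of 2053 after R5020, a GR score of 1515 after Dex and no GR R5020 peak. On the same chromosome the site from 142661062 to 142661797 had a peak in all 5 A1-2 lists, with untreated scores of 1872 for PR and 2055 for GR, 1878 for PR after R5020, 1608 for GR after Dex and 1032 for GR after R5020. The site on chromosome 21 from 9825372 to 9827861 had 961 and 2877 without hormone and 1026 and 501 for PR and GR with their ligands. Scores of different libraries are set side by side here and not compared, because they move with depth. What the 3 sites share is a called peak with the PR antibody and with the GR antibodies, both with and without hormone. None had an MTVL PR peak nearer than 29.1 kb. The highest GR R5020 scores at dual sites mostly came with untreated calls too. An exception was the site on chromosome 3 from 60479624 to 60480206, where the GR R5020 score was 3100 and no untreated peak overlapped. On chromosome 7 a single GR R5020 peak with a score of 3205 covered 2 dual sites, from 10676967 to 10677948 and from 10679282 to 10680572. Both had an untreated PR peak, and the second also an untreated GR peak. On chromosome 18 the site from 22713763 to 22714856 scored 3100 for GR after R5020, 617 for untreated GR and 989 for untreated PR.

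Part of the hormone-free sites stood in runs. Runs of at least 5 dual sites with gaps of at most 20 kb numbered 11 and held 71 dual sites. Untreated A1-2 peaks were found at 50 of the 71 (70.4%, 58.4 to 80.7) and GR R5020 peaks at 47 (66.2%, 54.0 to 77.0). Outside runs, 94 of 1634 dual sites (5.75%, 4.67 to 6.99) had an untreated peak and 104 (6.36%, 5.23 to 7.66) a GR R5020 peak, both still above the shares of the shared sites. In 10 of the 11 runs at least 1 dual site had an untreated peak. The exception was a run on chromosome 12 from 53269964 to 53304748, where 6 dual sites lay with 0 untreated A1-2 peaks and 1 GR R5020 peak that touched none of them.

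The run with the most sites, on chromosome 3 from 60473095 to 60492174, held 9 dual sites within 19.1 kb. A single GR R5020 peak overlapped all 9, and 11 untreated GR and 21 untreated PR peaks lay in the run, with 0 MTVL PR peaks. PR scores of the 9 ran from 112 to 672 and GR scores from 134 to 1121. On chromosome 3, a run of 8 from 72306402 to 72327012 had 6 dual sites with a GR R5020 peak and 6 with an untreated one. The other runs of 7 or more each held 7. The run on chromosome 2 from 99526997 to 99555997 had 6 with a GR R5020 peak and 6 hormone-free, and its first site, from 99526997 to 99533019, was 6023 bp wide and scored 2935 for PR and 2604 for GR. On the same chromosome, 2 dual sites of the run from 219601830 to 219619276 had a GR R5020 peak and 5 were hormone-free. On chromosome 12 from 124000531 to 124019650 the numbers were 3 and 7. Most sites of these 5 runs were thus called without hormone, while GR after R5020 was called at most sites in some and at few in others. A run of 5 on chromosome 9 from 130666368 to 130677484 had 2 hormone-free sites and 0 with a GR R5020 peak.

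**Figure D3:**
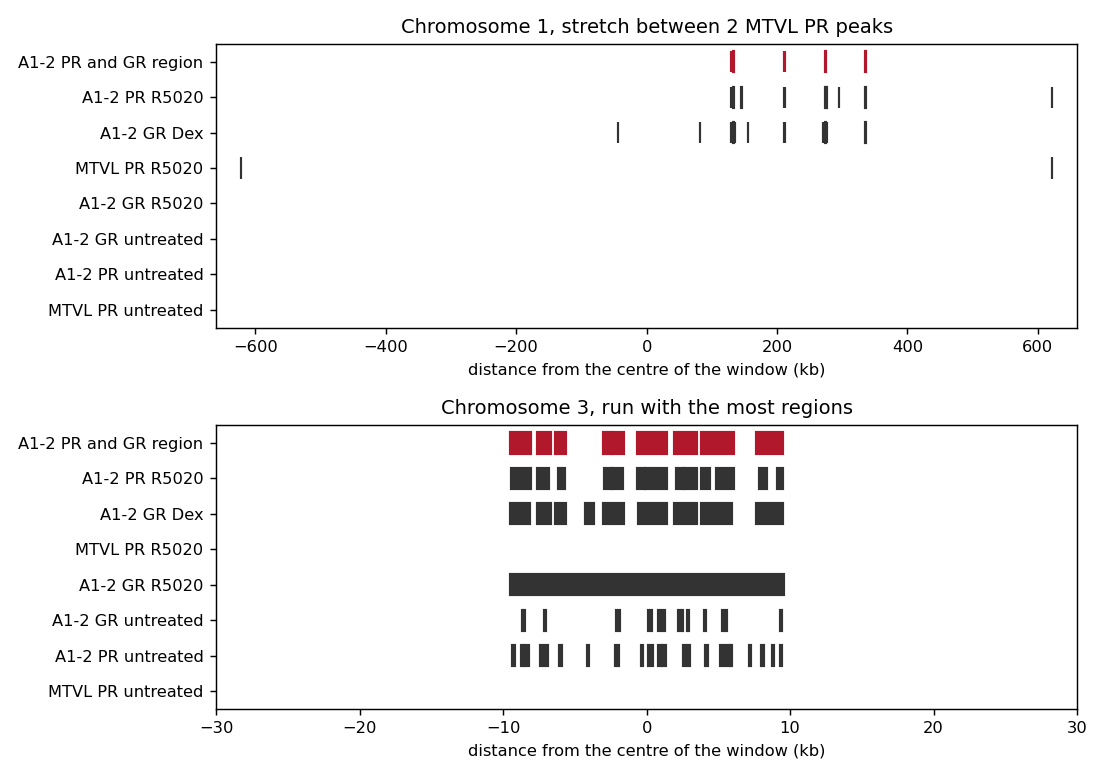
Called peaks by list (rows) against the distance from the centre of the window (kb, x axis), in a stretch of chromosome 1 (top) and in the run with the most sites, on chromosome 3 (bottom). Red marks are dual sites and dark marks peaks, each drawn to scale with an outline that thickens narrow ones. The 6 dual sites on top have no untreated or GR R5020 peak, while the 9 below lie under 1 GR R5020 peak with 11 untreated GR and 21 untreated PR peaks.

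How far the dual sites lay from PR binding in MTVL cells varied widely. The median gap to the nearest MTVL PR peak was 14402 bp, with quartiles of 4040 and 43700 bp. An MTVL PR peak began within 1 kb at 167 dual sites (9.79%, 8.42 to 11.3), and these nearby MTVL peaks had a median score of 372. Only 6 dual sites had one within 50 bp, the closest 3 bp from a site on chromosome 16 from 27268402 to 27269175. Just on the other side of the rule, 1 shared site had an MTVL peak that shared 50 bp or less with an A1-2 peak. The median PR score was 177 in the 6 and the PR score was 108 in the 1. The farthest dual site, on chromosome 16 from 64083046 to 64083573, lay 1609 kb from any MTVL PR peak and scored 444 for PR and 160 for GR. More than 100 kb separated 210 dual sites (12.3%, 10.8 to 14) from any MTVL PR peak, compared with 8.95% of the regions of GR Dex alone (8.04 to 9.92) and 9.56% of those of A1-2 PR alone (8.51 to 10.7).

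**Figure D4:**
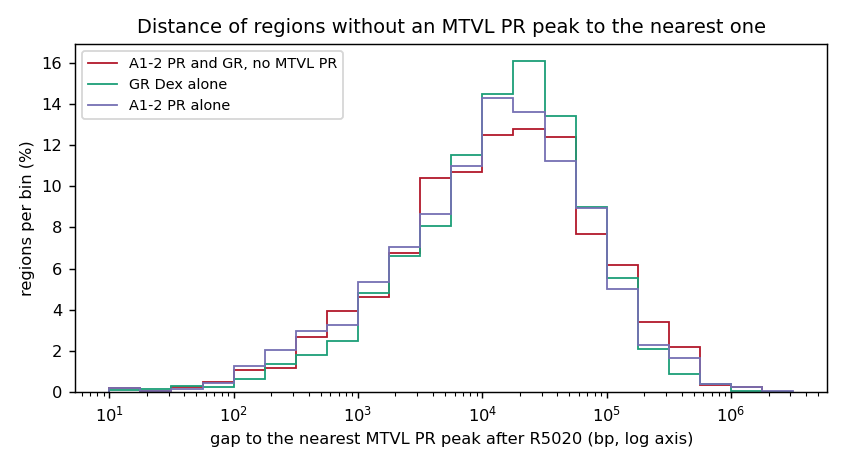
Share of regions per bin (%, y axis) against the gap to the nearest MTVL PR peak after R5020 (bp, log x axis), for dual sites (red), regions of GR Dex alone (green) and regions of A1-2 PR alone (purple). The 3 distributions overlap widely, with medians of 14402, 16043 and 13845 bp, and dual sites have the largest share beyond 100 kb.

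Some dual sites lay in long stretches that MTVL PR peaks left free. Such stretches of at least 500 kb between neighbouring MTVL PR peaks numbered 639, with a total length of 678 Mb. They held 176 dual sites (10.3%) in 119 of them, and 11 had 3 or more. Of all A1-2 peaks, 2.34% of PR and 3.75% of GR Dex peaks lay in them. Unlike the dual sites, these peaks include those of the dense chromosome 16 block. The stretch from 31863861 to 34750931, which reaches into that block, held 169 PR and 184 GR Dex peaks and 1 dual site. Since dual sites were selected to lie off MTVL PR peaks, a larger share is favoured by the selection itself. The chromosome 1 stretch from 176663600 to 177906153, 1.24 Mb long, held 6 dual sites, 9 A1-2 PR peaks and 12 GR Dex peaks, with 0 untreated and 0 GR R5020 peaks. In order of position, the PR scores of its 6 dual sites were under 150 at the first pair and then 214, 1913, 3100 and 691, and their GR scores were 142, 201, 275, 492, 3100 and 508. On chromosome 8 a stretch from 135904033 to 136919257 held 5 dual sites with PR scores up to 370, and on chromosome 3 one from 6869367 to 8335455 held 4 with PR scores up to 584. Neither had an untreated or GR R5020 peak. In contrast to these, the stretch on chromosome 12 from 125754415 to 126374837 held 6 dual sites of which 5 were hormone-free. These stretches were picked out after their values had been seen.

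Dual sites were unevenly spread over the chromosomes. Of the A1-2 regions with both receptors, 21.1% on chromosome 16 (18 to 24.5) were dual sites, with its dense block already left out, against 12.9% (12.3 to 13.5) over all chromosomes. Chromosomes 12 (20.2%, 17.1 to 23.6), 20 (19.8%, 16.5 to 23.4), 14 (18%, 15.1 to 21.1) and 11 (16.8%, 14.4 to 19.4) followed. The lowest share was that of chromosome 17 (6.20%, 4.01 to 9.09). Intervals also lay below 12.9% on chromosomes 1, 2, 4, 5 and 6, with shares from 8.54% to 10.4%. These intervals are not adjusted for the 23 chromosomes. The 5 highest chromosomes, grouped after the data had been seen, held 631 dual sites, 37.0% of all.

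The 5 chromosomes had the larger shares at equal PR scores too, except among strong peaks. On the 5 highest chromosomes 28.7% of regions with a PR score from 200 to below 300 were dual sites (24.7 to 33.0), compared with 14% (12.2 to 16) on the other 18, and from 150 to below 200 the shares were 39.1% (34.1 to 44.3) and 25.8% (23 to 28.7). From 500 to below 1000 they were 3.98% and 2.94%, and from 1000 up 0.812% and 0.667%, each with overlapping intervals. Without regions at GR R5020 peaks or within 20 kb of untreated A1-2 peaks, the shares were 19.9% on chromosome 16, 19.6% on 20, 17.6% on 14, 16.4% on 12 and 15.9% on 11, against 11.5% overall. Chromosome 3 went from 13.3% to 10.2% and chromosome 2 from 10.4% to 7.20%. The same 5 chromosomes were above the overall share without GR, and so were chromosomes 19 and X, though the intervals of chromosomes 12 and 19 included it. Among A1-2 PR regions without a GR Dex peak, which share no region with the dual sites, those without MTVL PR were 39.3% on chromosome 20, 38.3% on 14, 36.8% on 16, 33.1% on 11 and 21.8% on 12, against 19.9% overall. Across the 23 chromosomes the 2 shares had a Pearson r of 0.85 and a Spearman rho of 0.82, and both rest on the same A1-2 and MTVL PR libraries. The number of copies of each chromosome in the 2 lines was not analysed here.

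**Figure D5:**
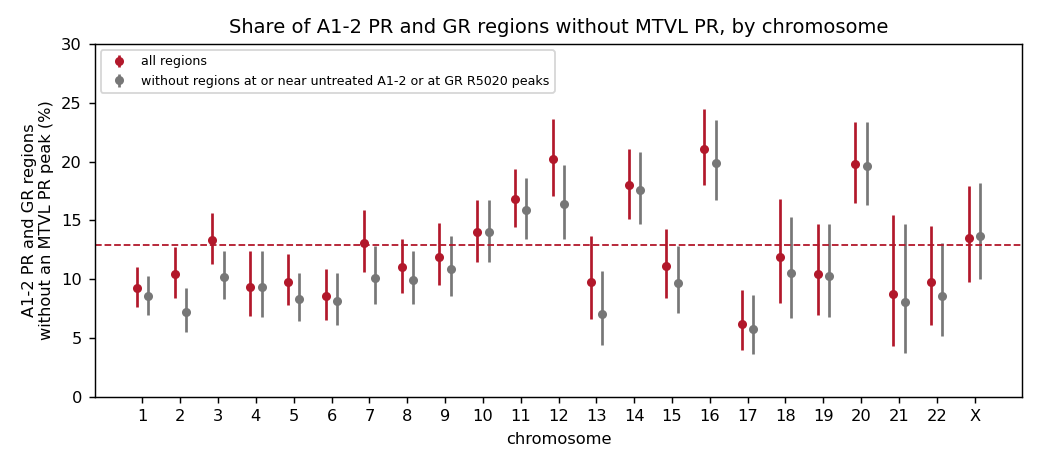
Share of A1-2 regions with both receptors that had no MTVL PR peak (%, y axis) by chromosome (x axis). Red points are all regions, grey points leave out regions at GR R5020 peaks or within 20 kb of untreated A1-2 peaks, bars are exact 95% intervals and the dashed line is 12.9%, the share over all chromosomes. Chromosomes 10, 11, 12, 14, 16, 20 and X lie above the line with both points, and for 10 and X the intervals include it.

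Within chromosomes the dual sites gathered in some segments. Of windows of 5 Mb, the 6 with the most dual sites are given here with their share of the regions with both A1-2 receptors. Chromosome 16 from 1 to 5000000 held the largest number, 32 of 90 (35.6%, 25.7 to 46.3). On chromosome 11 from 65000001 to 70000000 it was 28 of 104 (26.9%, 18.7 to 36.5), on chromosome 12 from 50000001 to 55000000 it was 27 of 95 (28.4%, 19.6 to 38.6) and on chromosome 14 from 100000001 to 105000000 it was 24 of 80 (30%, 20.3 to 41.3). All 4 were on chromosomes with high shares. Chromosome 12 from 1 to 5000000 had 23 of 58 (39.7%, 27 to 53.4) and chromosome 3 from 190000001 to 195000000 had 23 of 66 (34.8%, 23.5 to 47.6). The next window, on chromosome 16 from 85000001 to 90000000, had 22 of 117 (18.8%, 12.2 to 27.1), an interval that includes the overall 12.9%. The windows were chosen for their counts and carry no test.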

How the data were processed

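Bowtie 1.1.1, MACS 1.4.2 and bedtools, with the build hg19, are listed by the submitters' processing notes. For settings other than the p threshold of 1e-10, and for control library, depth and read filters, the sources used here state nothing. The 8 deposited files each list the peaks of 1 library with a score, which the authors' peak caller gave and which was taken as -10 times the log10 of p because its lowest value is 100. Scores reached a ceiling near 3100.

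Samples were grouped by title. Peaks off chromosomes 1 to 22 and X or at A1-2 input peaks were dropped, and peaks sharing at least 1 bp were merged and classed. Shares have exact (Clopper-Pearson) 95% intervals, differences of shares Newcombe intervals and medians intervals from ranks. Merging and classing were tested on simulated data and against bedtools 2.31.1. Regions named came from the 8 of highest PR and of highest GR score, all at the ceiling, 8 at GR R5020 peaks and 5 at untreated peaks by score, the 3 nearest to and farthest from an MTVL PR peak, and the runs with the most members. Only a part of these is printed. The regions, lists and rules were chosen with earlier results of these data known. Windows, stretches and chromosome groups were chosen after their values were seen. No hg19 genome or annotation was used here, so motifs, distances to genes and sequences, which had been planned, were not analysed, and 0 genes were placed. Alternatives are in the closing section. Computation used Python 3.11.15 with scipy 1.17.1, numpy 2.4.6, matplotlib 3.10.9 and statsmodels 0.14.6.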

Additional observations from a re-analysis of the deposited data

How the results depend on the processing

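Of 54 alternatives over 8 results, 36 stayed within the 95% interval of the reported value, or within 1.5 times for the count, and 18 moved further. The cause of these moves was not tested, except where the alternative's own construction sets it. Keeping only peaks that scored 200 or more, in the MTVL list too, gave 788 dual sites, of which 394 overlapped a reported one and 394 overlapped shared sites, with median scores of 332 for PR and 350 for GR, 6.6% at untreated peaks, 6.09% with an MTVL PR peak within 1 kb and a share of 17.3% on chromosome 16. Keeping the chromosome 16 block gave a median PR score of 173, 14.1% at GR R5020 peaks, 12.4% at untreated peaks and 38.2% on chromosome 16. With PR and GR midpoints within 200 bp, 6.89% lay at GR R5020 peaks and 6.37% at untreated peaks, and the median midpoint distance was 37 bp. Leaving out dual sites at untreated A1-2 peaks put 3.27% at GR R5020 peaks, against 1.58% of the shared sites. Chosen after seeing the data were the omission of dual sites within 20 kb of such peaks (0.686% at GR R5020 peaks, a median PR score of 161 and a midpoint distance of 40 bp), the midpoint rule for GR R5020 peaks (2.52%), and all alternatives of the untreated and chromosome 16 shares. Asking for no MTVL PR peak within 1 kb, or keeping peaks at input peaks, moved none of the results for which these were run. The planned motif and gene alternatives were not run. The unknown depth of the libraries limits every count of sites without a peak.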
